A study of Arabidopsis thaliana with 12 samples.

Results

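SABATH methyltransferases are plant enzymes that pass a methyl group from S-adenosylmethionine to small molecules, in most characterised members to the carboxyl group of an acid. They are named after salicylate, benzoate and theobromine methyltransferases, and their products include methyl salicylate and methyl jasmonate, volatile esters made in wounded or infected leaves. Methylation masks the acid, and esterases of the MES family can release it again, so the enzymes are known for setting how much of a hormone is held in active form. The 8 genes described here are set by a list of gene codes that was chosen with their chitin response in these data known. They are PXMT1 (AT1G66700), AT1G66690, AT1G66720, BSMT1 (AT3G11480), FAMT (AT3G44860), JMT (AT1G19640), IAMT1 (AT5G55250) and AT5G38020, out of 32678 genes in the count table. All 24 SABATH genes listed for this description, the 8 and 16 others, carry the note of a SAM dependent carboxyl methyltransferase in the RefSeq annotation, and 1 further gene of the genome does.

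The data were read counts from RNA sequencing of whole Arabidopsis thaliana seedlings, in 12 libraries that form 4 groups of 3. The groups were Col-0 wild type with mock, Col-0 with chitin, the mapkkk5-1 mutant with mock and the mapkkk5-1 mutant with chitin, and within each group the libraries came from 3 independent experiments. All seedlings were 8 days old, spent 3 h in liquid medium before treatment and were treated for 3 h. The labels conflict on the chitin dose, with 40 µM in the protocol and 40 mM in the series design, and they do not say what the mock contained. Chitin is a polymer of fungal cell walls that plants sense as a sign of a fungus, and MAPKKK5 is a protein kinase of the signalling chain below the chitin receptor. The comparison of mutant and wild type asks which chitin responses differ without this kinase. In whole seedlings, fewer cells of a type and less RNA per cell cannot be told apart.

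Library totals ranged from 15455836 to 20179428 reads, so that 0 reads allow a level of up to 3 reads, or 0.152 to 0.200 CPM (reads per 1000000 library reads), for counting error only. MAPKKK5 itself gave 513, 436 and 372 reads in Col mock and 70, 97 and 61 reads in the libraries labelled mapkkk5 mock. It was lower there by 2.53 ± 0.27 on the log2 scale (edgeR adjusted p = 0.00147). In chitin it gave 637, 563 and 893 reads in Col and 503, 583 and 237 reads in the libraries labelled mapkkk5, a log2 difference of -0.75 ± 0.23 that did not pass the test (edgeR adjusted p = 0.674). Counts per gene do not show which part of the gene these reads came from. All genes below are reported as CPM on TMM-scaled library sizes, as mean ± SD (n = 3), and fold changes are edgeR log2 estimates ± SE.

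Of the 8 genes, 3 lie in 1 stretch of chromosome 1. In the TAIR10.1 assembly PXMT1 occupies chr1:24873206-24874766 on the minus strand with 3 coding exons, and AT1G66690 lies 2340 bases away at chr1:24869340-24870865 on the same strand. AT1G66720 lies on the plus strand at chr1:24881180-24882480, followed after 1585 bases by MIR163 (AT1G66725), the gene of a microRNA that the RefSeq note describes as targeting several genes of the SAMT family. The coding sequences of PXMT1 and AT1G66690 are 91.7% identical, with 80 bases as the longest identical run. AT1G66720 is 80.6% identical to PXMT1 and 81.4% to AT1G66690. FAMT, at chr3:16379571-16381434 on the plus strand, has a close copy of its own, AT3G44870, which lies 784 bases away with 92.7% identity. BSMT1 (chr3:3614421-3617342, plus strand), JMT (chr1:6788885-6791919, minus strand), IAMT1 (chr5:22407427-22410974, minus strand) and AT5G38020 (chr5:15165642-15167864, minus strand) lie apart from the others of the 8. AT5G38020 has SABATH genes outside the 8 near it, which are described below.

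The microRNA and its best antisense matches in the spliced transcripts are shown because the microRNA gene lies beside this stretch and its counts are compared with those of the SABATH genes below. Mature miR163 has 24 bases, read from TAIR10.1 at chr1:24884359-24884382 on the plus strand, and capitals in it mark the seed, bases 2 to 8. In the gene lines capitals mark bases that pair with miR163 in the Watson-Crick sense, and G:U pairs are counted as mismatches. The windows are all in coding sequence, at chr1:24874307-24874330 (minus strand), chr1:24870402-24870425 (minus strand), chr1:24881603-24881626 (plus strand), chr3:16380055-16380078 (plus strand) and chr3:16382618-16382641 (plus strand), in the order shown.
miR163: tTGAAGAGgacttggaacttcgat
PXMT1: catcgAGTTCCAAGTCCTCTTCAA
AT1G66690: catcgAGTTCCAAGTCCTCTTCAA
AT1G66720: catcgAGTTCCAgGTCCTCTTCAA
FAMT: AatcgAGTTCCAAGTttTCTTCAA
AT3G44870: tatcgAGTTCCAAGTttTCTTCAA
The search allowed no gaps, and all mismatch counts here hold for matches without gaps only. PXMT1 and AT1G66690 held the same 24 bases, with 5 mismatches that are all in the first 5 bases, at the end away from the seed match. In each gene window shown, the letters atcg before AGTT equal the start of the miR163 complement moved by 1 base. With a gap of 1 base they would pair as well, so the order of these genes by mismatches depends on this setting. AT1G66720 and FAMT had 6 mismatches each and AT3G44870 had 7. Among 27438 genes scanned in the same way, 6 had a window with at most 5 mismatches, 0.0219%, and 2 of these 6 were PXMT1 and AT1G66690. Of the 24 SABATH genes, 13 had a window with at most 8 mismatches, 4 of them among the 8 genes, and BSMT1, JMT, IAMT1 and AT5G38020 had 9 or more. A match of letters is a description and no measured site.

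The promoter windows of PXMT1 and its neighbour AT1G66690 are shown because the genes are close copies whose counts in chitin lay far apart. Each window holds 250 bases before and 50 bases after the annotated start (TAIR10.1, chr1:24874717-24875016 and chr1:24870816-24871115, both on the minus strand), and capitals mark TTGAC, the core of the W-box bound by WRKY factors, and TGACG, the core of the as-1 element bound by TGA factors, on either strand.
PXMT1: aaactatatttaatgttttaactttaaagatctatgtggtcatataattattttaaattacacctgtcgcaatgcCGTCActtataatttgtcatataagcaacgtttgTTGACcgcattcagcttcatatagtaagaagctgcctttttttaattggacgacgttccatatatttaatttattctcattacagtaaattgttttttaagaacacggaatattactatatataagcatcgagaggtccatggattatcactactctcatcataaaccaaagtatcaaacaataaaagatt
AT1G66690: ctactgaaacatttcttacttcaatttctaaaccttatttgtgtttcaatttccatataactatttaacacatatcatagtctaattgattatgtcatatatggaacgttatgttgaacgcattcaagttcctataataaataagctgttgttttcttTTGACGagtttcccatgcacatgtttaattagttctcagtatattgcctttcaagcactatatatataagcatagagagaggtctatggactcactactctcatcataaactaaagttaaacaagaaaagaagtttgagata
The windows were 78.8% identical over 269 aligned bases. Each held 1 TTGAC and 1 TGACG, which overlap in AT1G66690 and lie apart in PXMT1. Of all 27443 windows of this length, 50.5% held TTGAC and 23.1% held TGACG, and of the windows of the 8 genes 6 held TTGAC and 3 held TGACG. The G-box CACGTG (7.68% of all windows) and the GCC box GCCGCC (2.57%) were in neither of the pair.

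PXMT1, named after the paraxanthine methyltransferase activity of its product, was near the detection limit in mock and became the highest of the 8 genes in chitin. It gave 4, 20 and 19 reads in Col mock and 865, 1077 and 997 in Col chitin, experiments 1 to 3 in order. The libraries labelled mapkkk5 held 2, 10 and 5 reads in mock and 785, 1282 and 1046 in chitin. Every chitin library lay far above every mock library in both genotypes, with no overlap. The means were 0.836 ± 0.536 CPM in Col mock, 58.9 ± 11.4 in Col chitin, 0.323 ± 0.217 in mapkkk5 mock and 58.0 ± 15.4 in mapkkk5 chitin. The log2 change with chitin was 6.14 ± 0.36 in Col, 70.8-fold, and 7.45 ± 0.41 in mapkkk5, 175-fold, which placed the gene at rank 31 and rank 17 from the top of 20994 genes. PXMT1 was among the genes selected on its chitin response in these libraries, so these values are a description and carry no test. By experiment the log2 change was 7.78, 5.89 and 5.47 in Col and 8.23, 6.98 and 7.45 in mapkkk5, and experiment 1, with the fewest reads in mock, gave the largest value in both genotypes.

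**Figure D1:**
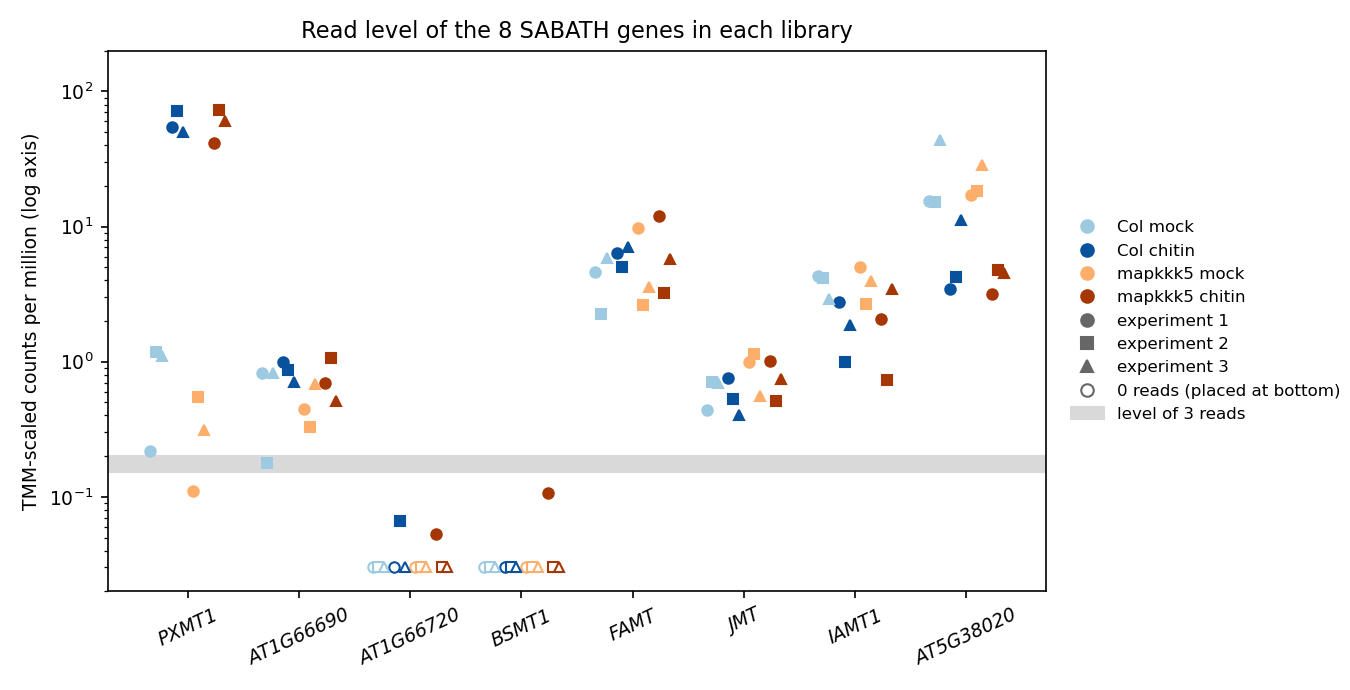
The TMM-scaled CPM of each of the 8 genes are plotted on a log axis for every library, with colour for the group and symbol shape for the experiment. PXMT1 moves from 0.111 to 1.18 CPM in the mock libraries to 41.7 to 72.3 CPM in the chitin libraries, AT5G38020 moves down, IAMT1 is lower in chitin without overlap in Col, and the other genes have overlapping mock and chitin points or hardly any reads.

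AT1G66690, the closest copy of PXMT1, stayed at low counts in every group. Its reads were 15, 3 and 14 in Col mock, 16, 13 and 14 in Col chitin, 8, 6 and 11 in mapkkk5 mock and 13, 19 and 9 in mapkkk5 chitin. The groups overlapped in both genotypes, with log2 changes of 0.49 ± 0.49 in Col and 0.65 ± 0.51 in mapkkk5. In the 6 chitin libraries AT1G66690 held 9 to 19 reads while PXMT1 held 785 to 1282. The sources used here do not say how the counting treated reads that match both copies, so the low counts of AT1G66690 are uncertain to that extent. AT1G66720, the third gene of the stretch, had 1 read in Col chitin of experiment 2 and 1 in mapkkk5 chitin of experiment 1, and 0 in the other 10 libraries.

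MIR163 rose with chitin in both genotypes. Its gene gave 254, 194 and 243 reads in Col mock and 593, 685 and 552 in Col chitin, against 242, 253 and 279 in mapkkk5 mock and 607, 649 and 772 in mapkkk5 chitin. Chitin and mock libraries did not overlap in either genotype. The log2 change was 1.48 ± 0.18 in Col (edgeR adjusted p = 2.77e-05) and 1.34 ± 0.18 in mapkkk5 (edgeR adjusted p = 7.47e-05). Libraries of poly(A)-selected RNA count the transcript of the microRNA gene, and the mature microRNA was not measured. The remaining neighbours moved little by comparison. CLPP3, which encodes a subunit of the chloroplast Clp protease, changed by -0.02 ± 0.11 in Col, and LIG6, which encodes a DNA ligase, by 0.10 ± 0.15, neither past the test (edgeR adjusted p = 0.903 and 0.63). AR401, the next gene beyond AT1G66690, rose by 0.59 ± 0.17 in Col and 0.60 ± 0.17 in mapkkk5 (edgeR adjusted p = 0.0138 in each). Of the 5 protein-coding genes with enough reads in or beside the stretch, AT1G66690 and PXMT1 thus had changes that differed by more than 5 on the log2 scale although they are neighbours and close copies.

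**Figure D2:**
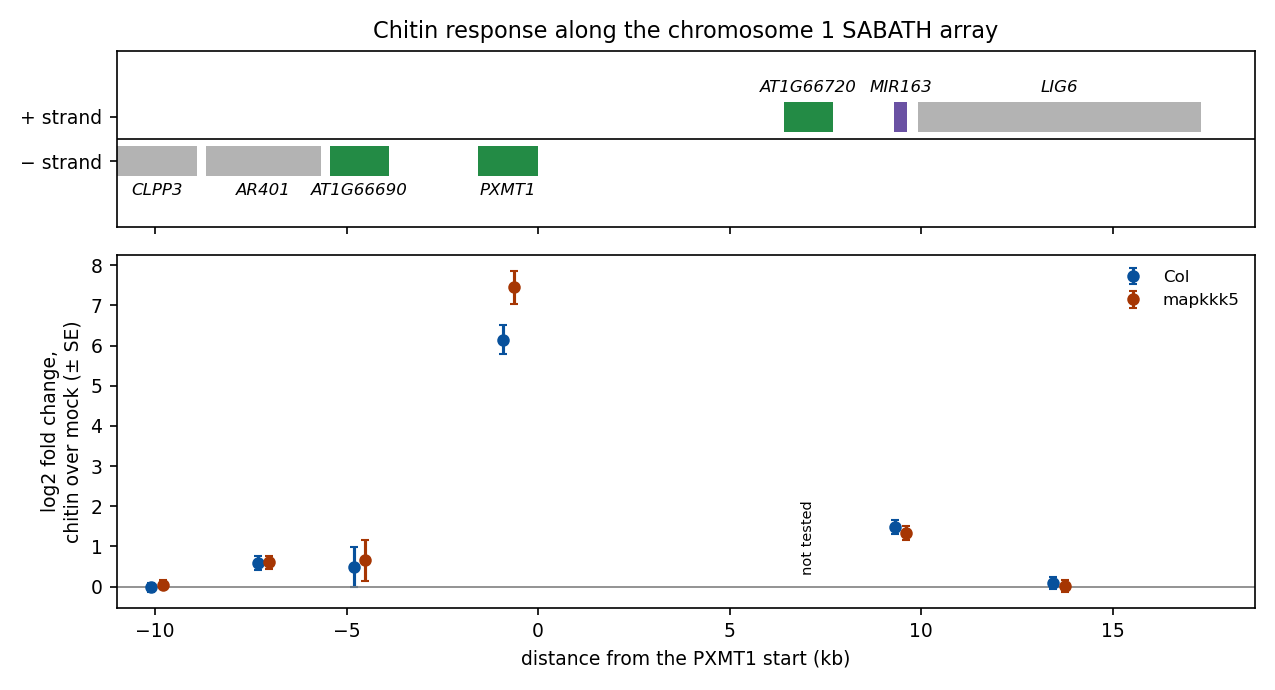
The upper panel places the 3 SABATH genes (green), MIR163 (purple) and the neighbours (grey) by strand and distance in kb from the start of PXMT1, and the lower panel gives the log2 chitin response of each gene as estimate ± SE in Col and mapkkk5. PXMT1 stands at 6.14 and 7.45, MIR163 at 1.48 and 1.34, and the other tested genes lie between -0.02 and 0.65.

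AT5G38020, a SABATH gene whose substrate is not named in the annotation used, was the highest of the 8 genes in mock and moved the other way. It gave 283, 257 and 751 reads in Col mock and 55, 64 and 220 in Col chitin. The libraries labelled mapkkk5 held 309, 334 and 457 reads in mock and 60, 85 and 79 in chitin. Chitin libraries lay below mock libraries without overlap in both genotypes, and experiment 3 was the highest of its group in both mock groups and in Col chitin. The means were 24.8 ± 16.5 and 6.29 ± 4.23 CPM in Col mock and chitin, and 21.3 ± 6.27 and 4.17 ± 0.862 CPM in mapkkk5. The log2 change was -1.95 ± 0.46 in Col and -2.35 ± 0.48 in mapkkk5, rank 134 and rank 34 from the bottom. Within experiments the drop was closer than the levels were: -2.16, -1.82 and -1.97 in Col and -2.42, -1.92 and -2.65 in mapkkk5.

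The summed level of root markers was also lower in chitin, while the single markers differed in direction. The summed level of 4 root markers was 3530 to 5220 CPM in Col mock and 1470 to 2830 in Col chitin, and 2960 to 4710 and 1340 to 2050 CPM in mapkkk5 mock and chitin, with experiment 3 the highest in each group. The sum follows PYK10, a beta-glucosidase of root ER bodies, which fell by 1.05 ± 0.26 on the log2 scale in Col and by 1.19 ± 0.26 in mapkkk5 (edgeR adjusted p = 0.00559 and 0.00292). The root hair gene EXPA7 was called in Col in the other direction, at 0.84 ± 0.28 (edgeR adjusted p = 0.0308), and 2 of the 4, SHV2 and the endodermal regulator MYB36, did not pass in either genotype, at -0.50 ± 0.23 and 0.10 ± 0.19 in Col. With the replicate block SHV2 passed in both (adjusted p = 0.0448 in Col and 0.0284 in mapkkk5). The sum of 3 shoot markers was also lower in chitin, 7350 to 9050 against 10500 to 13300 CPM in Col and 8150 to 10300 against 10600 to 12600 CPM in mapkkk5, and 1 of the 3 was called in Col and 0 in mapkkk5, or all 3 in each genotype with the block. Markers of flowers summed to 0.912 to 3.47 CPM over all libraries. The part of the marker levels in the AT5G38020 result was not tested.

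FAMT methylates farnesoic acid, and its reads varied more between experiments than between treatments. They were 85, 38 and 101 in Col mock, 101, 75 and 139 in Col chitin, 174, 48 and 57 in mapkkk5 mock and 224, 57 and 101 in mapkkk5 chitin. Mock and chitin overlapped in both genotypes, although the chitin library was above its mock library in all 6 pairs from the same experiment. The log2 change was 0.53 ± 0.51 in Col and 0.40 ± 0.50 in mapkkk5. The close copy AT3G44870 went the other way, with 10 to 16 reads in the 6 mock libraries and 2 to 4 in the 6 chitin libraries.

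IAMT1 methylates the auxin indole-3-acetic acid. It gave 79, 70 and 50 reads in Col mock and 44, 15 and 37 in Col chitin, and 90, 49 and 63 in mapkkk5 mock and 39, 13 and 60 in mapkkk5 chitin. The groups did not overlap in Col and overlapped in mapkkk5, where experiment 3 hardly differed between treatments. The log2 change was -1.01 ± 0.45 in Col and -0.89 ± 0.44 in mapkkk5. IAMT1 was called in neither genotype by the main fit and in both with the replicate block.

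JMT makes methyl jasmonate from jasmonic acid, and BSMT1 makes methyl salicylate and methyl benzoate. JMT stayed low in every group, with 8, 12 and 12 reads in Col mock, 12, 8 and 8 in Col chitin, 18, 21 and 9 in mapkkk5 mock and 19, 9 and 13 in mapkkk5 chitin. All 4 groups overlapped, and the log2 changes were -0.14 ± 0.43 and -0.26 ± 0.39. BSMT1 had 2 reads, both in mapkkk5 chitin of experiment 1, and 0 in the other 11 libraries, so that its level lay below 0.200 CPM in each of those and no response could be detected at this depth. BSMT1 and AT1G66720 were left out of every test for low counts, and 6 of the 8 genes were tested.

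Per kilobase of exon, a scale on which levels of different genes can be compared, the order of the tested genes in Col mock was AT5G38020 at 13.7 CPM per kb, FAMT at 2.57, IAMT1 at 2.36, PXMT1 at 0.566, AT1G66690 at 0.451 and JMT at 0.370. FAMT and IAMT1 overlapped between libraries, as did PXMT1, AT1G66690 and JMT. In Col chitin the order was PXMT1 at 39.9 CPM per kb, FAMT at 3.69, AT5G38020 at 3.47, IAMT1 at 1.17, AT1G66690 at 0.640 and JMT at 0.339. There FAMT overlapped with AT5G38020 and IAMT1 with AT1G66690, and JMT lay below the others in every library. PXMT1 made up 3.08 ± 2.50% of the summed per-kilobase level of the 8 genes in Col mock and 80.6 ± 6.95% in Col chitin, and 1.30 ± 1.10% and 80.6 ± 8.93% in mapkkk5. AT5G38020 went from 65.1 ± 10.7% to 7.22 ± 5.20% of the sum in Col and from 63.8 ± 13.2% to 4.76 ± 0.308% in mapkkk5. The sum itself went from 20.0 ± 9.87 to 49.2 ± 5.63 CPM per kb in Col and from 18.5 ± 3.51 to 48.2 ± 7.81 in mapkkk5. The 6 genes also differed in the shape of their profiles over the 12 libraries: the mean absolute difference between centred log2 profiles was 0.55 for the closest pair, FAMT and JMT, and 4.40 for the most distant, PXMT1 and AT5G38020.

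In calls over all genes, at a Benjamini-Hochberg adjusted p below 0.05, 1 of the 6 tested genes was raised by chitin in Col (background 21.2% of the 20994 tested genes) and 1 was lowered (background 17.3%). The same held in mapkkk5, with 1 raised (background 19.1%) and 1 lowered (background 15.7%), PXMT1 and AT5G38020 in both genotypes. With the replicate number as a block the lowered genes were 2 in each genotype, IAMT1 being the second. The block also called more of all 20994 genes, 10558 in Col and 9896 in mapkkk5, against 8083 and 7308 without it. These all-gene numbers apply to every count with the block, also for the other gene lists. The genes were selected on these responses, and nothing is read from the shares.

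The genotype contrasts were not used to choose the genes. None of the 6 tested genes was called between mapkkk5 and Col in mock (background 0.0191%, 4 genes), in chitin (background 0.0714%, 15 genes) or in the difference between the chitin responses (background 0%). This was edgeR's quasi-likelihood test, in which 0 of the 6 had an unadjusted p under 0.05 in any of these 3 comparisons. Over all 20994 tested genes, 463 in mock, 1276 in chitin and 275 for the difference had such a p. With so few genes nothing is read from the 0. DESeq2 and the fit with the replicate block also called 0 of the 6 in each. PXMT1 in mock differed by -1.32 ± 0.67 (95% interval -2.87 to 0.22, edgeR adjusted p = 1), with fewer reads in the mapkkk5 library in all 3 experiments and overlapping groups. In chitin it differed by -0.02 ± 0.24 (95% interval -0.58 to 0.54, edgeR adjusted p = 0.993). The difference of its chitin responses was 1.30 ± 0.71 (95% interval -0.34 to 2.95, edgeR adjusted p = 1), and it was positive in 3 of 3 experiments, at 0.45, 1.09 and 1.98. A change of the response by up to 2.95 on the log2 scale thus lies within the interval. For AT5G38020 the difference was -0.62 ± 0.49 in chitin (95% interval -1.76 to 0.52, edgeR adjusted p = 0.849) and -0.40 ± 0.65 between the responses (95% interval -1.90 to 1.10, edgeR adjusted p = 1). Genotype estimates of the other 4 genes lay between -0.33 and 0.56 in mock and between -0.17 and 0.44 in chitin, and all of their groups overlapped. MIR163 differed by 0.17 ± 0.18 in mock and 0.03 ± 0.17 in chitin (edgeR adjusted p = 1 and 0.98).

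Of the 16 other SABATH genes, 9 had enough reads to be tested, and calls lay in both directions. In Col 2 were raised (background 21.2% of all tested genes), 3 were lowered (background 17.3%) and 4 did not pass. With the replicate block 2 were raised and 5 lowered in Col, where 10558 of all 20994 genes were called. In mapkkk5 3 were raised (background 19.1%), 4 were lowered (background 15.7%) and 2 did not pass. The raised count in Col was near the background share. The median log2 change of the 9 was -0.46 in Col and -0.44 in mapkkk5, against 0.00 over all tested genes. AT1G15125 had the highest level of the family in both chitin groups. It gave 1410, 681 and 1076 reads in Col mock and 3856, 2650 and 3223 in Col chitin, and it rose by 1.69 ± 0.20 in Col and 2.12 ± 0.21 in mapkkk5 (edgeR adjusted p = 2.53e-05 and 5.39e-06). Its share of the summed per-kilobase level of the 24 genes was 39.0 ± 13.4% in Col mock and 64.3 ± 9.14% in Col chitin, where PXMT1 stood at 20.1 ± 5.19%. AT3G44840 rose by 1.92 ± 0.57 in Col and 2.53 ± 0.67 in mapkkk5 (edgeR adjusted p = 0.0157 and 0.0101), from 3 to 9 reads per library in Col mock to 8 to 45 in Col chitin. In Col its call ended when replicate 3 of Col chitin (adjusted p = 0.119) or replicate 2 of Col mock (adjusted p = 0.0663) was left out. GAMT2, a gibberellin methyltransferase of developing seeds that was named after its values were seen, was called in mapkkk5 at 1.13 ± 0.30 (edgeR adjusted p = 0.01) and in that genotype lost its call without mapkkk5 chitin replicate 3 (adjusted p = 0.0558). Seed storage transcripts summed to 81.9 CPM in that library and to 0.213 and 21.1 CPM in the other two of its group, and their part in the GAMT2 value was not tested.

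Lowered genes of the family included relatives of FAMT and of AT5G38020. AT3G44870 fell by 2.13 ± 0.42 in Col and by 2.03 ± 0.43 in mapkkk5 (edgeR adjusted p = 0.00131 and 0.00233). AT5G38100 gave 40, 48 and 127 reads in Col mock and 7, 7 and 41 in Col chitin, and it fell by 1.99 ± 0.58 in Col and by 2.43 ± 0.62 in mapkkk5 (edgeR adjusted p = 0.0144 and 0.00816). Leaving out Col mock replicate 3 ended its call in Col (adjusted p = 0.0969), as did leaving out replicate 1 (adjusted p = 0.058) or 2 (adjusted p = 0.0598) of Col chitin. AT3G21950, whose coding sequence is 85.4% identical to that of AT5G38020, fell by 1.02 ± 0.31 and 1.05 ± 0.32 (edgeR adjusted p = 0.0203 in each), and it was named after its values were seen. In Col this call ended when Col mock replicate 3 or Col chitin replicate 1 or 2 was left out (adjusted p = 0.0788, 0.0677 and 0.0792), and in mapkkk5 when mapkkk5 mock replicate 3 or chitin replicate 2 was (adjusted p = 0.0501 and 0.0661). AT5G37990, likewise named after its values were seen, had a log2 change of -1.60 ± 0.68 in Col (edgeR adjusted p = 0.0807; 0.000126 with the replicate block) and fell by 2.34 ± 0.72 in mapkkk5 (edgeR adjusted p = 0.0225). Without Col chitin replicate 3 its value in Col was -3.29 (adjusted p = 0.00157), and its call in mapkkk5 ended without mapkkk5 mock replicate 3 or chitin replicate 1 or 2 (adjusted p = 0.0763, 0.0764 and 0.069). AT5G37990 (chr5:15133867-15135169) and AT5G38100 (chr5:15199489-15201197) lie near AT5G38020 on chromosome 5, all on the minus strand. AT5G37970 (chr5:15123089-15124435, minus strand) lies near them as well and had 1 read over all libraries. For AT5G38020, AT5G37990 and AT5G38100, experiment 3 gave the highest level in both mock groups and in Col chitin.

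**Figure D3:**
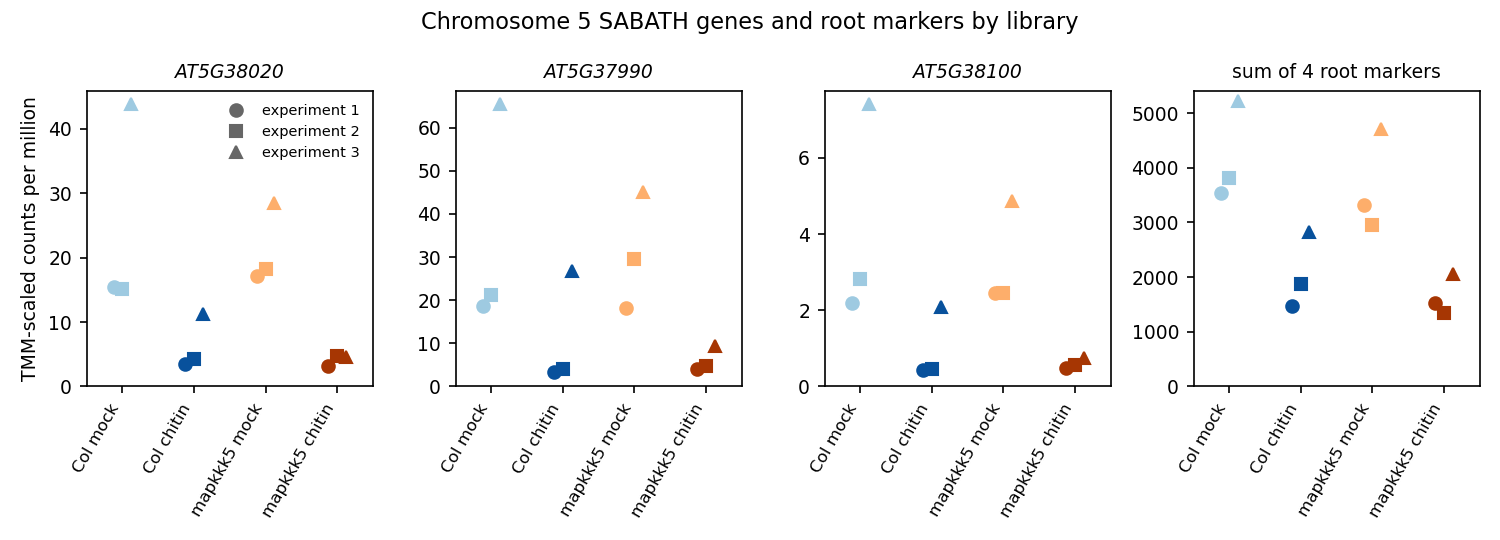
The first 3 panels plot the TMM-scaled CPM of AT5G38020, AT5G37990 and AT5G38100 in every library from a baseline of 0. The fourth plots the sum of 4 root markers, which follows the single gene PYK10. All 4 panels show lower chitin than mock points within each genotype and experiment, and in Col mock the experiment 3 library is the highest, with 43.9 CPM for AT5G38020 and 5220 CPM for the marker sum.

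The windows resembling the miR163 complement were present in genes that rose and in genes that fell. Among the tested genes with at most 7 mismatches in a match without gaps, PXMT1, AT1G15125 and AT3G44840 were raised. AT3G44870 and AT5G38100 were lowered, and FAMT and AT1G66690 did not pass. No relation was tested.

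**Figure D4:**
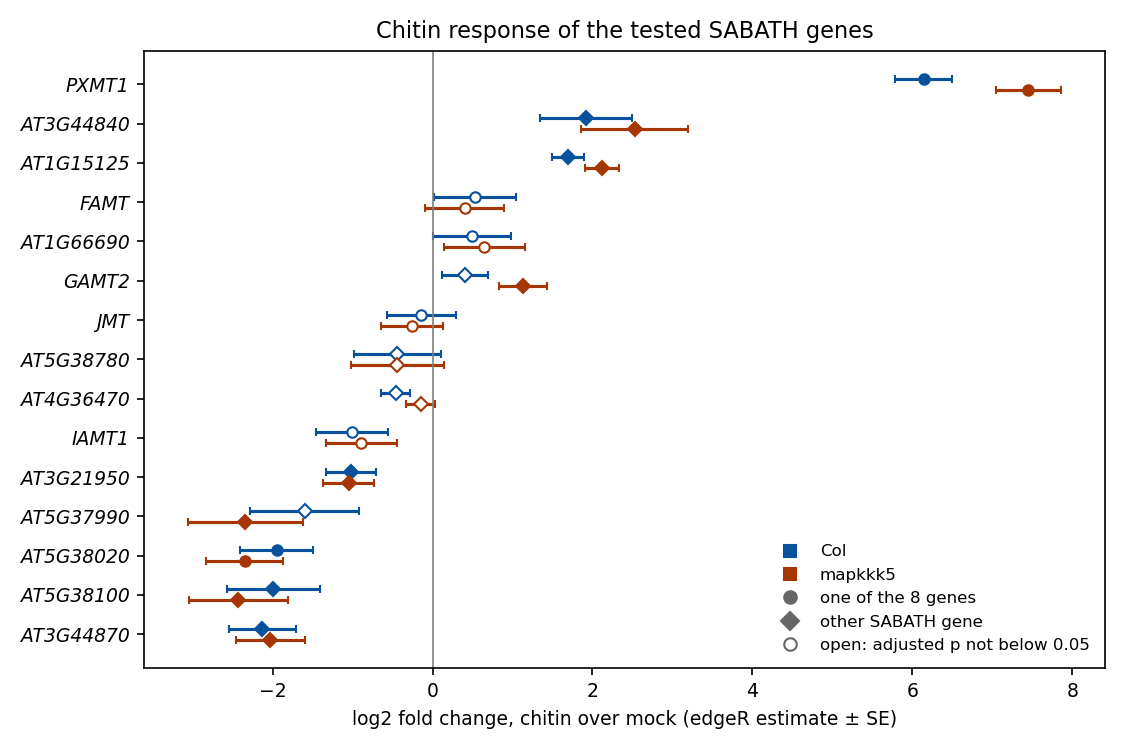
The log2 chitin response (edgeR estimate ± SE) is plotted for the 15 tested SABATH genes in Col and mapkkk5, ordered by the value in Col, with filled symbols for an adjusted p below 0.05. PXMT1 lies at 6.14 and 7.45, the next gene, AT3G44840, at 1.92 and 2.53, and the lowest value is -2.43, for AT5G38100 in mapkkk5.

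Among the listed methyl esterase and S-adenosylmethionine cycle genes, most of those called were lowered. Both lists were chosen with earlier results of these data known, so nothing is read from this direction. Of 20 methyl esterase (MES) genes, which encode enzymes that release the acid from its methyl ester, 16 were tested, and 0 were raised (background 21.2%) and 5 lowered (background 17.3%) in Col, and 0 (background 19.1%) and 6 (background 15.7%) in mapkkk5. In Col, 6 of the 16 had an unadjusted p under 0.05, against 9805 of all 20994 tested genes. In mapkkk5, 8 of the 16 had such a p, against 9210 of all 20994. The replicate block gave 2 raised and 6 lowered in Col and 3 and 8 in mapkkk5 (10558 and 9896 of all genes called). MES17, which hydrolyses methyl indole-3-acetate, fell by 1.11 ± 0.18 and MES10 by 1.15 ± 0.17 in Col (edgeR adjusted p = 0.000332 and 0.00012). The median of the 16 was -0.34 in Col and -0.28 in mapkkk5. Of 11 genes that make S-adenosylmethionine or recycle its product, 1 was raised and 4 were lowered in Col (background 21.2% and 17.3%) and 1 and 5 in mapkkk5 (background 19.1% and 15.7%), with medians of -0.36 and -0.41 (2 and 7 in Col and 1 and 7 in mapkkk5 with the block, 1 and 7 in each with upper-quartile scaling). SAM1, an S-adenosylmethionine synthetase, rose by 0.58 ± 0.14, while SAHH2, an S-adenosylhomocysteine hydrolase, fell by 0.85 ± 0.16 and ADK1, an adenosine kinase, by 0.64 ± 0.13 in Col (edgeR adjusted p = 0.00492, 0.00112 and 0.00171). The call of SAM1 was lost without replicate 2 of all groups (adjusted p = 0.0541).

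Most of the listed enzymes that use salicylate, jasmonate or auxin, or their conjugates, in other ways were raised. In Col 9 of 11 were raised (background 21.2%) and 0 lowered (background 17.3%), with 2 not passing, and in mapkkk5 7 of 11 were raised (background 19.1%) and 0 lowered (background 15.7%). RLE and upper-quartile scaling gave 8 raised in Col, where JAR1 lost its call (edgeR adjusted p = 0.0582 and 0.148, against 0.0432). In Col AT5G05600 (edgeR adjusted p = 0.0345) lost its call with DESeq2 (adjusted p = 0.0589) or without Col chitin replicate 3 (edgeR adjusted p = 0.135). Upper-quartile scaling gave 6 raised in mapkkk5, and the replicate block gave 9 in Col and 8 in mapkkk5. The list was chosen with earlier results of these data known, so its count is not independent evidence of a direction. The medians were 1.40 and 1.26, against 0.00 over all tested genes. UGT76B1, a glucosyltransferase that acts on salicylate and isoleucic acid, gave 42.7 to 63.2 CPM in Col mock and 361 to 452 CPM in Col chitin, and it rose by 3.04 ± 0.19 in Col (edgeR adjusted p = 6.29e-08). AT4G10500, the salicylate hydroxylase DLO1, rose by 3.04 ± 0.21 in Col (edgeR adjusted p = 1.66e-07), from 2.95 to 3.39 CPM per library to 21.1 to 34.0. Of 4 transcription factors that act upstream of BSMT1 in coronatine-treated Arabidopsis, 2 were raised in Col (background 21.2%) and 2 in mapkkk5 (background 19.1%) with 0 lowered, and 3 were raised in each genotype with the block. NAC3, also called ANAC055, rose by 2.89 ± 0.37 in Col and RD26, also called ANAC072, by 0.74 ± 0.14 (edgeR adjusted p = 3.81e-05 and 0.00111), while BSMT1 had 0 reads in all 3 Col chitin libraries. No gene of these 4 lists, or of the 9 other SABATH genes, was called between genotypes or for the difference of the responses by edgeR. There were 8 instances of an unadjusted p under 0.05 over the 5 lists and 3 comparisons. Over all 20994 genes they numbered 463 in mock, 1276 in chitin and 275 for the difference.

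The tested genes with a symbol whose profiles over the 12 libraries were most like that of PXMT1, by the mean absolute difference of log2 CPM centred on each gene's mean, were CYP71A12 (0.477), CCOAMT (0.508), GLIP1 (0.515), GSTF3 (0.575) and PER4 (0.636). CYP71A12 is a cytochrome P450 of indolic defence compounds, CCOAMT is annotated as a caffeoyl-CoA methyltransferase, GLIP1 is a secreted lipase, GSTF3 a glutathione transferase and PER4 a peroxidase. Their log2 chitin changes in Col ran from 5.15 to 6.77 and in mapkkk5 from 5.92 to 8.28. The value of 8.28 belongs to GLIP1, which averaged 0.0364 CPM in mapkkk5 mock, and CCOAMT averaged 0.0947 CPM there. Both means lay below the level of 3 reads, so the sizes of these changes in mapkkk5 and the likeness of these genes to PXMT1 are uncertain. CYP71A12 and GSTF3 also have close copies in the genome, whose identity was not measured here. Their counts are uncertain to the extent that reads match both copies. For AT5G38020 the most similar were EXPB3 (0.274), CYP708A2 (0.276), ATC (0.293), MLP34 (0.304) and MLP43 (0.316), and AT5G38020 was chosen for this after its values were seen, in place of BSMT1, whose reads were too few. EXPB3 encodes a beta-expansin of the cell wall and CYP708A2 a P450 of triterpene synthesis in roots. Log2 chitin changes of these 5 ran from -2.01 to -1.58 in Col and from -2.22 to -1.67 in mapkkk5.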

How the data were processed

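The deposited values are raw counts of reads for each gene in each of the 12 libraries, whole and not normalized by the authors. Tools named in the submitters' processing notes are HTSeq 0.6.1, TopHat2 2.0.10, cutadapt 1.5 and CASAVA 1.8.2, with the build TAIR10. Per the labels' protocols the libraries were made from poly(A)-selected RNA with a directional kit. The sources used here do not give the strand setting or the treatment of reads shared by copies.

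The table was analysed in R 4.3.3 with edgeR 4.0.16. Of 32678 genes, 7389 had no read, and filterByExpr kept 20994. TMM factors were 0.971 to 1.034, and the quasi-likelihood fit used the 4 groups and all 12 libraries (8 residual degrees of freedom) after it was tested on simulated data. A gene was called at an adjusted p (Benjamini-Hochberg, over all tested genes) below 0.05. The SE is the absolute log2 change divided by the square root of the F statistic. The 95% intervals are the estimate ± the SE times the t quantile for the 8 residual degrees of freedom. The edgeR test has more degrees of freedom, so the intervals are wider than the test implies. Profiles use log2 CPM with a prior count of 2 reads, and log2 ratios by experiment add 0.5 reads to each count. Alternatives were DESeq2 1.42.0, RLE and upper-quartile scaling, other filters, the replicate block and leaving out libraries. Chi-square per degree of freedom between replicates was 10.73 to 26.49, far above counting noise.

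Deviations from the group means correlated at 0.16 to 0.51 in all 12 pairs of libraries with the same replicate number in compared groups, and at -0.44 to 0.14 in the other 24, so the numbers pair the samples. The main fit did not use this pairing, so its SE, p-values and intervals are unpaired unless the replicate block is named.

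Sequences and positions come from the RefSeq TAIR10.1 genome, read and aligned in Python 3.11.15 with Biopython 1.88. The counts were made on TAIR10 and carry no coordinates. The members and all gene lists (other SABATH genes, methyl esterases, S-adenosylmethionine cycle, other enzymes of the same substrates, regulators of BSMT1, organ markers) were chosen with earlier results of these data known. MIR163 came in as a neighbour of the chromosome 1 stretch, and the search for its matches was added after its values were seen. The genes named were all 8 members, up to 2 raised and 2 lowered genes with the smallest p per list in Col, the genes around the chromosome 1 stretch and the 5 most similar profiles. AT3G21950, AT5G37990, GAMT2 and the organ markers were named outside this rule, the first 3 after their values were seen. The profile comparison planned for BSMT1 was replaced by one for AT5G38020.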

Additional observations from a re-analysis of the deposited data

How the results depend on the processing

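PXMT1 and AT5G38020 kept their direction and their call in both genotypes under all 21 alternatives, with log2 changes of 5.67 to 6.51 and 7.03 to 8.09 for PXMT1 and of -2.69 to -1.26 and -2.57 to -2.09 for AT5G38020 in Col and mapkkk5. Of the values of single members under the alternatives, 621 stayed on their side of the threshold and 4 gained a call. All 4 were IAMT1, with the replicate block (adjusted p = 0.0213 in Col, 0.0428 in mapkkk5) and without mapkkk5 chitin replicate 2 (0.0385 in Col) or 3 (0.0315 in mapkkk5, log2 -1.45). None reversed a call.

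The number of members called ranged from 2 to 3 in each chitin comparison and was 0 in the genotype comparisons when libraries were left out. With libraries left out, the other SABATH genes called ranged from 2 to 6 in Col and from 3 to 7 in mapkkk5 (7 and 7 with the replicate block). All genes called, again with libraries left out, ranged from 5385 to 8412 for chitin in Col and from 4762 to 7403 in mapkkk5, from 0 to 9 between genotypes in mock, from 0 to 23 in chitin (9 to 19 when single libraries were left out), and from 0 to 2 for the difference of responses. Without experiments 1, 2 and 3 in turn, chitin gave 5385, 5544 and 6145 calls in Col and 4905, 4837 and 4762 in mapkkk5. With DESeq2, 7, 62 and 6 genes were called between genotypes in mock, in chitin and for the difference, against 4, 15 and 0. The replicate block gave 7, 96 and 2 there and 10558 and 9896 for chitin in Col and mapkkk5, against 8083 and 7308, and no filter beyond 1 read gave 23 in chitin and 1 for the difference. The cause was not tested, except that leaving out libraries leaves fewer samples.

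Upper-quartile scaling moved the median log2 change of all genes to -0.11 in Col and -0.09 in mapkkk5, and with it the median of the 6 tested members in mapkkk5 from 0.07 to -0.02. How reads shared by near-identical copies were counted is not known, and at these depths BSMT1 and AT1G66720 could not be tested. Each group had 3 libraries, and genotype differences within the PXMT1 interval could not be detected.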
